A study of Mus musculus with 9 samples.

Results

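The 10 interferon-stimulated genes described here are *Isg15*, *Usp18*, *Irf7*, *Ifit1*, *Ifit3*, *Oasl2*, *Rsad2*, *Ifi44*, *Zbp1* and *Ifi205*. They were chosen by name from the known interferon response, with earlier results of these data in view, and the proposal set them against the measured level of *Vdac2*, which is therefore given for each library as a description and tested nowhere. All 10 were found among the 52636 Ensembl genes of the table, and all 10 passed the filter on low counts that left 16322 genes for testing. Total RNA of the left ventricle came from 16-week-old mice labelled with a C57BL6J background, 5 libraries labelled VDAC2 WT (1 to 5) and 4 labelled VDAC2 KO (6 to 9). In the KO, *Vdac2* was deleted in ventricular myocytes by an αMHC-Cre transgene acting on floxed alleles during development, so that other cells of the ventricle keep the gene. The WT mice were littermates that carried either the floxed alleles or the Cre transgene, and the labels do not say which of these a given library is. The labels give no sex and do not say whether each library is a separate animal, so p-values measure the spread between libraries.

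Type I interferons act through a surface receptor and the kinases JAK1 and TYK2 to activate transcription factors that bind the interferon-stimulated response element (ISRE) of their target genes. The targets include sensors of foreign nucleic acid, proteins that block viral translation or replication, and brakes on the response itself. VDAC pores of the outer mitochondrial membrane have been proposed as a route by which mitochondrial DNA reaches the cytosol, where cGAS and STING can start this response, and the question here is whether the target genes differed between the ventricles compared.

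*Vdac2* levels did not follow the labels. Levels are given as CPM, counts scaled by TMM-normalized library size to a common total, and always in library order, 1 to 5 under the WT label and 6 to 9 under the KO label. *Vdac2* measured 20.1, 366, 58.4, 365 and 21.3 CPM under the WT label and 384, 20.5, 421 and 19.1 CPM under the KO label, so that both labels hold low and high libraries. No library was moved between groups and no group was made from *Vdac2*, so each fold change below compares KO with WT as labelled, not by *Vdac2* content. *Xist* ranged from 335 to 587 CPM under the KO label and reached no more than 0.152 CPM under the WT label, and *Ddx3y* had at most 1 count in any KO library, so the sex of the mice, the sequencing lane (lane 1 for WT, lane 2 for KO) and the label cannot be told apart. Depth was 27345052 to 32469135 counts in the libraries labelled WT and 36477141 to 44673988 in those labelled KO, and at the floor of 3 counts a library showed 0.0692 to 0.114 CPM. The study's reporting summary states that a WT sample was left out for poor RNA quality without naming it, and all 9 libraries were used here. Library 3 stood apart. The 8 cardiomyocyte markers summed to 53629 CPM in it against 137913 to 171902 CPM elsewhere, and 3 monocyte markers (*Ccr2*, *Ly6c2* and *Plac8*) to 253 CPM against 5.91 to 23.4 CPM. In bulk tissue, fewer cells of a type and less RNA per cell cannot be told apart.

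The promoters were searched for the core of the element that interferon signalling reads, and a core outside the window searched is not counted. RefSeq windows of GRCm38.p6 from 250 bases before to 50 bases after the start site were held for 8 of the 10 genes (not *Usp18* or *Zbp1*). An ISRE core, searched on both strands as GAAA, any 2 bases and GAAA, with overlapping matches counted, was found in 5 of the 8 windows, those of *Isg15*, *Ifit1*, *Ifit3*, *Rsad2* and *Ifi205*, against 3.44% of 32851 promoter windows of the same length. A match is a run of letters, and binding was not measured. The following 4 windows are shown, written 5′ to 3′ on the strand of the gene with ISRE cores in capitals, because they hold the most matches, *Ifi205* being the gene whose values divide by label below. *Isg15* (chr4:156200769-156201068, minus strand) held 3 overlapping cores, the farthest beginning 78 bases before the start, and *Ifit1* (chr19:34640639-34640938, plus strand) held 2, at 104 and 85 bases before it. *Ifit3* (chr19:34583279-34583578, plus strand) held 2, at 156 and 122 bases, and *Ifi205* (chr1:174031706-174032005, minus strand) held 1 at 134 bases before the start and 1 after it.
Isg15: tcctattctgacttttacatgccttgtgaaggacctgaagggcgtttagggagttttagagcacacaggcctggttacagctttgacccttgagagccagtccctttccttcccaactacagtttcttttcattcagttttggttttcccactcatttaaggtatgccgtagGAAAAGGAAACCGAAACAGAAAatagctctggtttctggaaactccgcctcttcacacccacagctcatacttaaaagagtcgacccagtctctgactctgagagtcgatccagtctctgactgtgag
Ifit1: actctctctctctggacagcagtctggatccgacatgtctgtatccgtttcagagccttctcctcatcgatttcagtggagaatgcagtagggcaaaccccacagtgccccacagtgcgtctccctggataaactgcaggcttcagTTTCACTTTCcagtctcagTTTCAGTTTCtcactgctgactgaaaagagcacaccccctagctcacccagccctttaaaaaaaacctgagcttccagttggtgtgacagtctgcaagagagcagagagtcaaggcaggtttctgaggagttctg
Ifit3: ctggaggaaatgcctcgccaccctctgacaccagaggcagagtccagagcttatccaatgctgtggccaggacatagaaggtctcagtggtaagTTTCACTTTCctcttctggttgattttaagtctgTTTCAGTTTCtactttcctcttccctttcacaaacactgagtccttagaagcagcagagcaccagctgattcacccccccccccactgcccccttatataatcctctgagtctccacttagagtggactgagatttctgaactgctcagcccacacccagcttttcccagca
Ifi205: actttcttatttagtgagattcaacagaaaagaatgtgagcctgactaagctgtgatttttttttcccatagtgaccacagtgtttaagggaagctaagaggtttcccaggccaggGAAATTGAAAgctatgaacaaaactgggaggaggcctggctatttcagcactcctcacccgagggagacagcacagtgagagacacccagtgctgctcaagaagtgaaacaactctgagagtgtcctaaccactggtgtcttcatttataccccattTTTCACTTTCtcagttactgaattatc

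**Figure D1:**
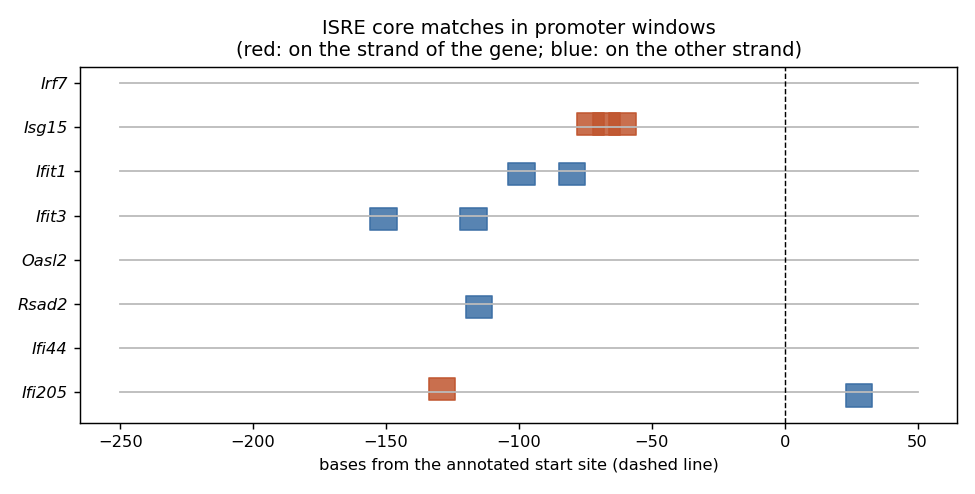
Positions of ISRE core matches in the promoter windows of 8 genes, on an axis of bases from the annotated start site, with each bar 10 bases wide. Matches of *Isg15*, *Ifit1*, *Ifit3* and *Rsad2* lay between 156 and 66 bases before the start at their farthest base, and *Irf7*, *Oasl2* and *Ifi44* had none in the window.

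By label, edgeR's quasi-likelihood test (Benjamini-Hochberg adjustment over 16322 genes) gave 0 of the 10 genes an adjusted p below 0.05, where 0.0551% of all tested genes did, and 1 of the 10, *Ifi205*, had an unadjusted p under 0.05, where 6.11% did. *Ifi205* was called by DESeq2 and by limma's voom with library quality weights, which called 0.282% and 0.484% of their tested genes, and both called none of the other 9. *Ifi205* was also the 1 gene of the 10 whose labelled groups did not overlap, a property of 4.37% of the tested genes. Estimates were above 0 for 2 of the 10 and below 0 for 8, with a median log2 fold change of -0.31, while 47.3% of all tested genes were above 0 and their median was -0.02. The other 9 estimates lay between -0.80 and 0.20, and the labels overlapped for each of these genes. Without library 3, 4 of the 10 estimates were above 0 and the median was -0.04.

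**Figure D2:**
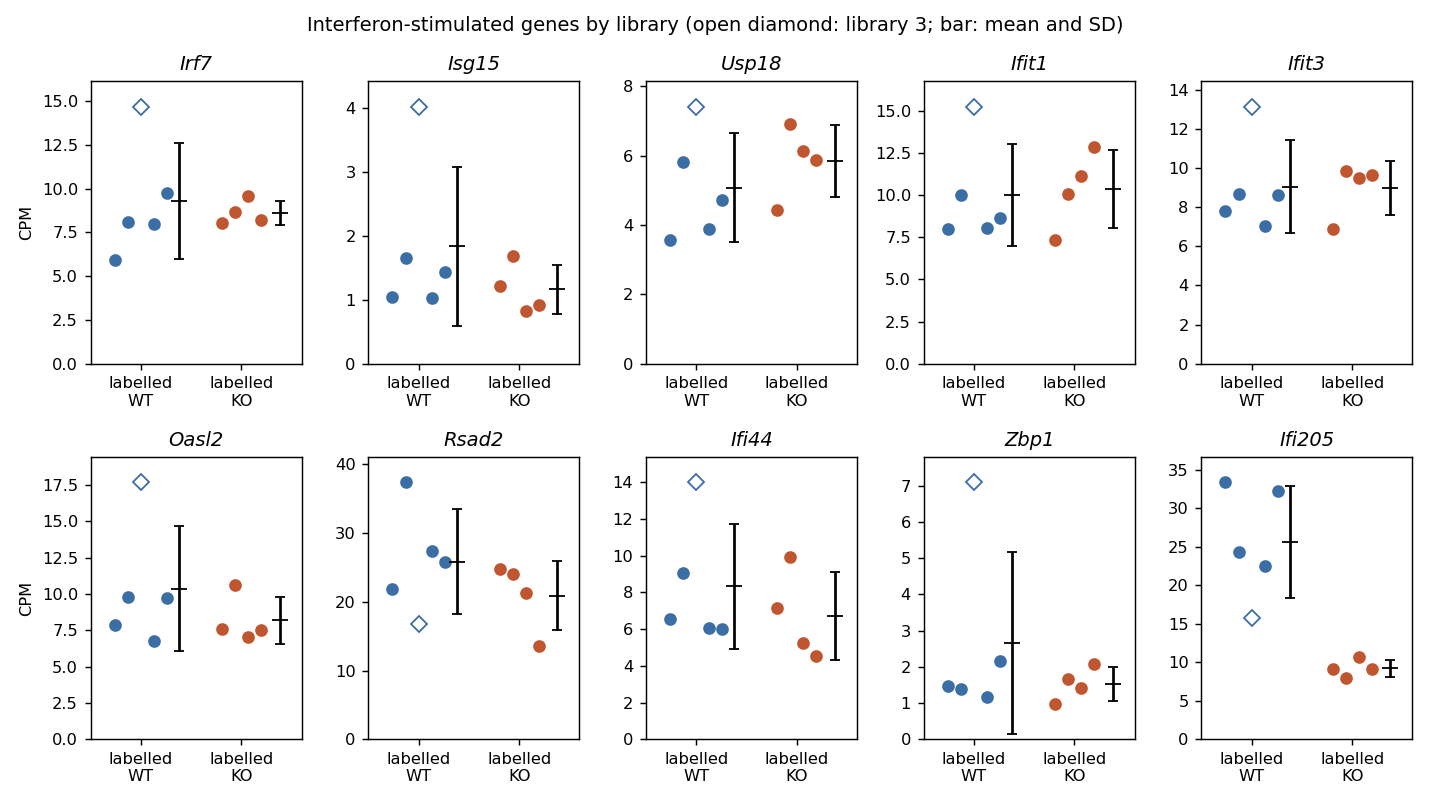
CPM of each gene in each library, by deposited label, with library 3 as an open diamond and the mean and SD of each label beside the points. Library 3 was the highest library for 8 genes, and *Ifi205* is the panel in which the 5 libraries labelled WT all lie above the 4 labelled KO.

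*Ifi205* (ENSMUSG00000054203, chromosome 1 of GRCm38 from 174011998 to 174031810, minus strand) belongs to the PYHIN family of interferon-induced proteins, which includes the cytosolic DNA sensor AIM2. It measured 33.4, 24.4, 15.7, 22.5 and 32.2 CPM under the WT label and 9.09, 7.98, 10.7 and 9.13 CPM under the KO label. Every library labelled KO thus lay below every library labelled WT, the nearest being library 8 at 10.7 and library 3 at 15.7 CPM. The WT label averaged 25.7 ± 7.30 CPM (SD, n = 5), the KO label 9.23 ± 1.12 CPM (SD, n = 4). *Ifi205* gave an estimated log2 fold change of -1.48 (SE of the estimate 0.22, with an adjusted p = 0.11 in edgeR's test), and over the other settings the adjusted p ran from 1.29e-06 with DESeq2 to 0.59 without library 6. It was under 0.05 with DESeq2, with quality weights (0.000804), with no low-count filter (0.046) and without library 3 (0.000368), where the log2 fold change was -1.62. *Vdac2* was 20.1 CPM in library 1, the highest for *Ifi205*, and 20.5 CPM in library 7, the lowest. A relation of *Ifi205* to *Vdac2* was not tested. The 7 macrophage markers summed to 514, 356, 993, 359 and 541 CPM under the WT label and 258, 378, 265 and 379 CPM under the KO label. Libraries 1 and 5, highest for *Ifi205*, had the highest of these sums but for library 3, which was the lowest library labelled WT for *Ifi205*, and the part of macrophages in its level was not tested. Of the gene's 50-base stretches, 18.6% occur unchanged in transcripts of other genes, nearly all in *Ifi211*, so part of its level is uncertain where reads with several alignments were counted.

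The PYHIN genes lie together on chromosome 1, and 10 others of a list of 16 were tested. Their median log2 fold change was -0.47, 8 estimates were below 0, 0 had an adjusted p under 0.05 (lowest 0.68) and 2, *Ifi207* and *Ifi204*, had an unadjusted p under 0.05, against 6.11% of all tested genes, the share to set beside each such count over all 9 libraries. *Ifi211*, which shares stretches with *Ifi205*, had the lowest estimate of the 10 at -0.93 (standard error 0.42), and its level was 1.64 to 7.33 CPM in the libraries labelled WT (at most 3.25 CPM without library 3) and 1.38 to 2.19 CPM in those labelled KO. *Ifi213* had the highest, 0.23 (standard error 0.23). *Aim2* measured 3.48, 2.30, 7.98, 2.13 and 2.59 CPM under the WT label and 2.38, 3.16, 2.67 and 2.58 CPM under the KO label, overlapping between labels. In 7 of these 10 genes library 3 was the highest of the 9 libraries, which it was not for *Ifi205*. Without library 3 the median of the 10 was -0.14, *Ifi211* was -0.45 and *Ifi207* -0.54, with 0 at an adjusted p under 0.05 and 2 at an unadjusted p under 0.05, as 11.8% of all tested genes had in that fit.

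**Figure D3:**
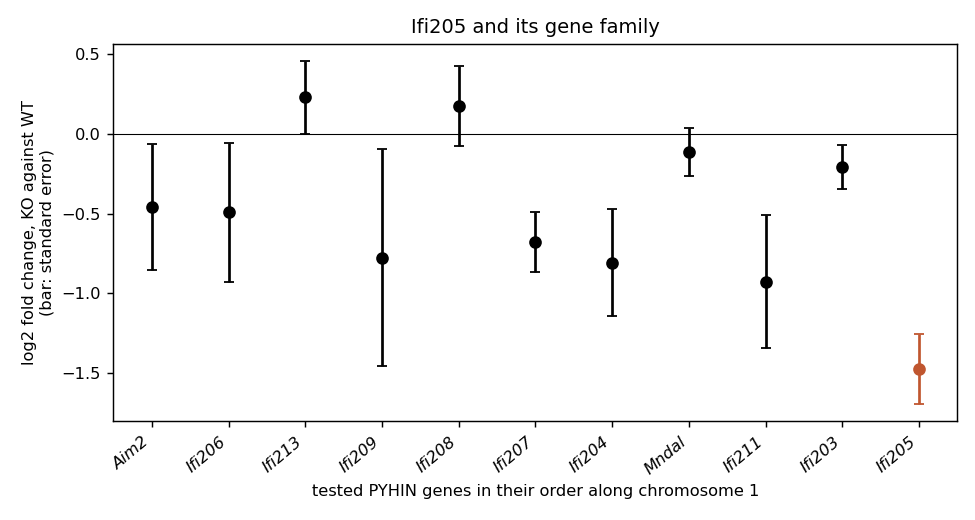
Log2 fold change between the labels with its standard error for the 11 tested PYHIN genes, in their order along chromosome 1. *Ifi205*, in red, had the lowest estimate (-1.48), and the others ran from -0.93 for *Ifi211* to 0.23 for *Ifi213*.

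*Zbp1* (ENSMUSG00000027514, chromosome 2 from 173206612 to 173218923), the other sensor of the set, binds nucleic acid in the left-handed Z form and can start necroptosis. It measured 1.48, 1.39, 7.09, 1.18 and 2.16 CPM under the WT label and 0.98, 1.66, 1.41 and 2.08 CPM under the KO label. Library 3 alone stood out, at 3.27 times the next highest library, and the remaining libraries of both labels overlapped. *Zbp1* gave an estimated log2 fold change of -0.80 (SE of the estimate 0.56, with an adjusted p = 0.69 in edgeR's test), and without library 3 it was -0.03.

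*Irf7* (ENSMUSG00000025498, chromosome 7 from 141262706 to 141266481) encodes the transcription factor that amplifies interferon production. It measured 5.94, 8.07, 14.7, 7.98 and 9.75 CPM under the WT label and 8.03, 8.67, 9.58 and 8.19 CPM under the KO label. The 4 libraries labelled KO spanned 8.03 to 9.58 CPM, inside the range of those labelled WT. The log2 fold change was -0.11 (SE of the estimate 0.24, with an adjusted p = 0.87 in edgeR's test), and its sign turned without library 3, to 0.11. The end of the gene overlaps *Phrf1* on the opposite strand, and the strand setting of the counting is not given in the sources used here.

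ISG15 is a ubiquitin-like protein that is joined to other proteins after interferon exposure, and USP18 is the protease that removes it and also restrains the interferon receptor. *Isg15* (ENSMUSG00000035692, chromosome 4 from 156199424 to 156200818) measured 1.05, 1.64, 4.01, 1.03 and 1.43 CPM under the WT label and 1.22, 1.69, 0.823 and 0.923 CPM under the KO label, which were 27 to 149 counts. *Isg15* in library 3 was 2.38 times that of the next highest library, library 7, and the other libraries overlapped between labels. Its log2 fold change was -0.66 (SE of the estimate 0.45, with an adjusted p = 0.68 in edgeR's test), and -0.15 without library 3. *Usp18* (ENSMUSG00000030107, chromosome 6 from 121245906 to 121270917) measured 3.57, 5.81, 7.41, 3.88 and 4.72 CPM under the WT label and 4.42, 6.90, 6.14 and 5.88 CPM under the KO label. Here library 3 was close to library 7, and *Usp18* had the highest estimate of the 10 genes, a log2 fold change of 0.20 (SE of the estimate 0.24, with an adjusted p = 0.77), which ran from 0.096 without library 1 to 0.37 without library 3. *Usp18* overlaps *Gm44148* on the opposite strand.

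IFIT1 binds viral RNA that lacks the cap methylation of host messages, and IFIT3 supports it in a complex. *Ifit1* (ENSMUSG00000034459, chromosome 19 from 34640871 to 34650009) measured 8.001, 10.01, 15.2, 8.06 and 8.63 CPM under the WT label and 7.31, 10.1, 11.1 and 12.8 CPM under the KO label. *Ifit3* (ENSMUSG00000074896, chromosome 19 from 34583531 to 34588731) measured 7.80, 8.66, 13.1, 7.03 and 8.63 CPM under the WT label and 6.89, 9.82, 9.49 and 9.64 CPM under the KO label. Both genes were highest in library 3 and lowest in library 6, and their log2 fold changes were 0.05 (standard error 0.23) and -0.02 (standard error 0.20), with adjusted p = 0.94 and 0.98 in edgeR's test. Without library 3 they were 0.25 and 0.15. These 2 genes lie in 1 cluster on chromosome 19, and both have ISRE cores in the promoter. *Ifit3* shares 51.2% of its 50-base stretches with *Ifit3b* and *Ifit1* shares 7.06% with *Ifit1bl2*, so the split of reads within the family is uncertain. Of the 4 other *Ifit* genes, all were tested and 4 estimates were above 0, from 0.06 for *Ifit2* to 0.64 for *Ifit1bl2*, with 1 at an unadjusted p under 0.05 and 0 at an adjusted p under 0.05 (lowest 0.68). Without library 3 their median was 0.46 and 3 of the 4 had an unadjusted p under 0.05, as did 11.8% of all genes tested in that fit, and 0 an adjusted p under 0.05.

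RSAD2 (viperin) makes a nucleotide analogue that stops viral RNA synthesis. *Rsad2* (ENSMUSG00000020641, chromosome 12 from 26442746 to 26456452) measured 21.8, 37.3, 16.7, 27.3 and 25.7 CPM under the WT label and 24.7, 24.0, 21.3 and 13.6 CPM under the KO label. It was, with *Ifi205*, 1 of the 2 genes that were not highest in library 3, in which its level was 0.63 times the median of the other libraries labelled WT. *Rsad2* gave an estimated log2 fold change of -0.30 (SE of the estimate 0.25, with an adjusted p = 0.70 in edgeR's test), and the labels overlapped. With each library left out it ran from -0.43 without library 3 to -0.13 without library 2. *Oasl2* (ENSMUSG00000029561, chromosome 5 from 114896936 to 114912234), of the family of oligoadenylate synthetases that respond to double-stranded RNA, measured 7.84, 9.83, 17.7, 6.80 and 9.69 CPM under the WT label and 7.60, 10.6, 7.05 and 7.52 CPM under the KO label. *Oasl2* thus overlapped between the labels, with library 3 at 1.67 times the next, and gave an estimated log2 fold change of -0.34 (SE of the estimate 0.28, with an adjusted p = 0.70), or -0.07 without library 3.

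*Ifi44* (ENSMUSG00000028037, chromosome 3 from 151730922 to 151749960) encodes an interferon-induced cytosolic protein. It measured 6.56, 9.06, 14.0, 6.08 and 6.005 CPM under the WT label and 7.13, 9.90, 5.23 and 4.54 CPM under the KO label, a log2 fold change of -0.32 (SE of the estimate 0.32, with an adjusted p = 0.74 in edgeR's test), or -0.053 without library 3. Libraries 4, 5, 8 and 9 were the 4 lowest, and they include both labels and both low and high *Vdac2*. Its neighbour *Ifi44l* (chromosome 3 from 151758737 to 151762892), chosen after its values were seen, had 1 count in library 4 and 0 counts in libraries 5, 8 and 9, which allows up to 0.0914, 0.0882 and 0.0692 CPM in these 3. In libraries 1, 2, 3, 6 and 7 *Ifi44l* was at 0.918, 1.57, 4.39, 0.901 and 1.77 CPM. The 4 libraries with at most 1 count of *Ifi44l* were the 4 with the lowest *Ifi44*, which again include both labels.

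**Figure D4:**
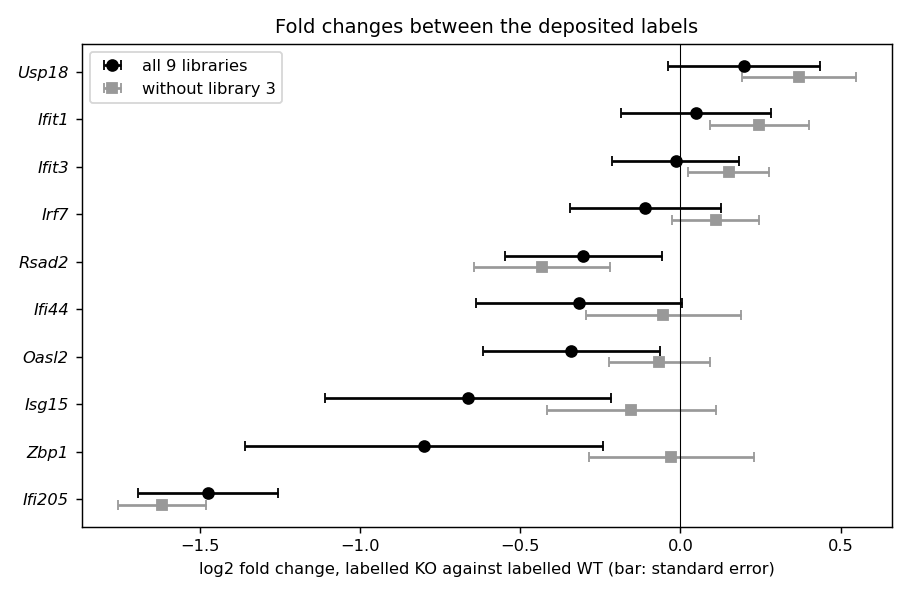
Log2 fold change (KO label relative to WT label) of each of the 10 genes, with its standard error, over all 9 libraries (black) and without library 3 (grey). *Ifi205* lies at -1.48 and -1.62, and the other 9 genes move to between -0.43 and 0.37 without library 3.

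Across libraries, 8 of the 10 genes were highest in library 3, as were 37.7% of all tested genes. Among the other 8 libraries the ratio of the highest to the lowest level ran from 1.43 for *Ifit3* to 4.18 for *Ifi205*, and library 7 was highest for 5 of the 10 genes. The mean standardized log2 CPM of the 10 genes was 1.504 in library 3, and then, in falling order, 0.34 in library 2, 0.24 in library 7, 0.12 in library 5, -0.23 in library 8, -0.35 in library 9, -0.50 in library 4, -0.51 in library 1 and -0.61 in library 6. *Vdac2* in that order was 58.4, 366, 20.5, 21.3, 421, 19.1, 365, 20.1 and 384 CPM. By label, these means were -0.51, 0.34, 1.504, -0.50 and 0.12 under the WT label and -0.61, 0.24, -0.23 and -0.35 under the KO label. No test of a relation between *Vdac2* and these genes was made, since groups drawn from a measured gene are not labelled groups.

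**Figure D5:**
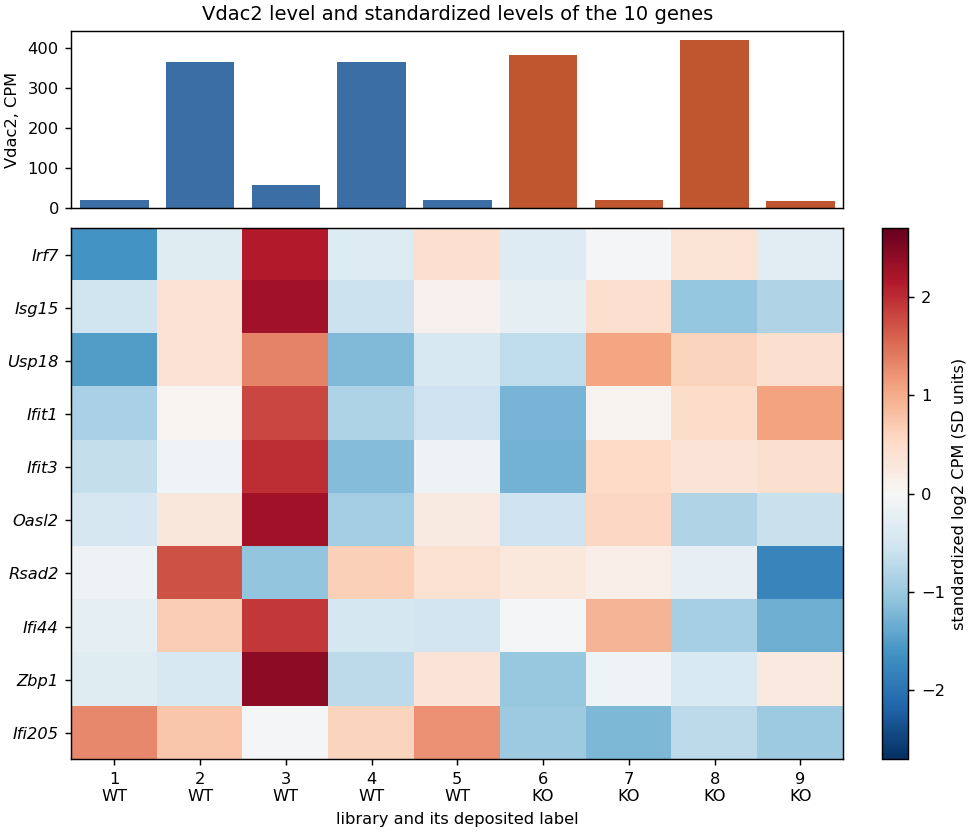
*Vdac2* in CPM (bars, coloured by deposited label) above the log2 CPM of the 10 genes, each standardized over the 9 libraries. Library 3 is the darkest red column with a mean of 1.504 SD units, and *Ifi205* is the row that divides at the label.

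Per kilobase of exon (GENCODE M21), the mean level over all libraries was highest for *Rsad2*, at 5.44 CPM per kilobase, followed by *Ifit3* at 5.16, *Ifi205* at 4.39, *Ifit1* at 3.82, *Irf7* at 2.38, *Isg15* at 2.03, *Usp18* at 1.94, *Oasl2* at 1.48, *Ifi44* at 1.24 and *Zbp1* at 0.611 CPM per kilobase. In the libraries labelled KO, *Ifi205* was at 2.21 ± 0.27 CPM per kilobase (SD, n = 4), beside *Irf7* at 2.28 ± 0.19, and in those labelled WT at 6.14 ± 1.75 (SD, n = 5), beside *Rsad2* at 5.95 ± 1.76. These neighbours differed by less than their SD. *Rsad2* led in neither label, since *Ifit3* stood at 5.14 CPM per kilobase under the KO label and *Rsad2* at 4.82, a difference within the SD of 1.17 for *Rsad2*. *Isg15* and *Usp18* also changed places, at 2.43 and 1.82 CPM per kilobase under the WT label and 1.54 and 2.09 under the KO label, with an SD of 1.65 for *Isg15* under the WT label, where library 3 was highest, so that they differed there by less than that SD.

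The genes upstream of the response were compared in the same fit. The table holds 21 interferon ligand genes, 16 of which had 0 counts in every library. No ligand gene had more than 4 counts in a library, all ligand counts came to 18 over the 9 libraries, and none was tested. All 12 receptor and signal transducer genes were tested, 7 with estimates above 0, 0 with an adjusted p under 0.05 (lowest 0.68) and 2 with an unadjusted p under 0.05, from -0.28 for *Ifnar1*, a chain of the type I receptor, to 0.41 for *Il10rb*. *Ifnar1* reached 76.0 CPM in library 3, while the other libraries lay within 33.2 to 37.1 CPM under the WT label and 32.2 to 38.6 CPM under the KO label, and its estimate without library 3 was 0.007. Without that library 9 of the 12 were above 0 and 4 had an unadjusted p under 0.05, where 11.8% of all tested genes did. Among 8 other interferon regulatory factors, 4 estimates were above 0 and 2 had an unadjusted p under 0.05, *Irf9* at 0.25 (standard error 0.10) and *Irf5* at -1.07 (standard error 0.45), the latter -0.53 without library 3. Of 8 tested genes of DNA sensing, 6 estimates were below 0 (median -0.55) and 0 had an unadjusted p under 0.05. *Cgas*, the cytosolic DNA sensor, measured 0.951, 1.06, 3.93, 1.102 and 1.46 CPM under the WT label and 0.689, 1.24, 1.09 and 1.38 CPM under the KO label, and *Tmem173*, which encodes STING, reached 22.4 CPM in library 3 while the others lay within 4.32 to 6.37 CPM. Both overlapped between labels. In the upstream lists the labels did not overlap for *Ifngr2* (1 of 12 receptor and transducer genes) and *Irf2bp2* (1 of 13 negative regulators). Nor did they overlap for *Irf3*, 1 of 8 genes in both the regulatory factor and the DNA sensing list. Of 9 RNA sensing genes and of 6 of mitochondrial DNA packaging and pores, 0 were without overlap. The share over all tested genes was 4.37%. *Irf3* lay at 24.8 to 26.7 CPM under the WT label and 26.8 to 29.6 CPM under the KO label. *Tlr9* had the lowest estimate of the DNA sensing list (-1.12, standard error 0.90) and *Irf3* the highest (0.11, standard error 0.07). Library 3 was highest for 7 of the 8, and without it the median was 0.003 and *Tlr9* turned to 0.46. Of 9 RNA sensing genes 7 were below 0, from -0.98 for *Tlr7* (SE of the estimate 0.41, with an adjusted p = 0.68), an X-linked receptor, to 0.18 for *Ticam1*, with 1 at an unadjusted p under 0.05, and without library 3 these ends were -0.47 and 0.45, and both had an unadjusted p under 0.05. Of 13 tested negative regulators 5 were above 0, from -1.07 for *Ptpn6* to 0.44 for *Irf2bp2*, with 2 at an unadjusted p under 0.05, and without library 3 *Ptpn6* was -0.32, 7 were above 0 and 3 had an unadjusted p under 0.05. Of 6 genes of mitochondrial DNA packaging and outer membrane pores 4 were above 0, from -0.31 for *Bax* to 0.29 for *Vdac1*, with 0 at an unadjusted p under 0.05, and without library 3 *Bax* was 0.024, *Vdac1* 0.10 and all 6 were above 0, with 1 (*Bak1*, 0.24) at an unadjusted p under 0.05. None of these lists held a gene with an adjusted p under 0.05.

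A wider list of 85 interferon-stimulated genes, written by hand with earlier results known, had 84 tested. Their median log2 fold change was -0.08, 33 estimates were above 0, 0 had an adjusted p under 0.05 (lowest 0.58), and 12 had an unadjusted p under 0.05, 7 above 0 and 5 below, where 6.11% of all tested genes did. That count was 13 of 84 without library 3, where 11.8% of all tested genes were. It was lowest at 2 of 84 without library 8 and 3 of 85 without library 9, where 3.06% and 3.52% were. With the other settings it ran from 8 of 84 without library 2 to 15 of 84 with quality weights, where 7.36% and 13.6% were. Library 3 was highest for 40 of the 84, and without it the median was 0.02. *Igtp*, an interferon-inducible GTPase, had the highest estimate (0.77, standard error 0.36), with 43.6 and 36.2 CPM in libraries 8 and 9 but 17.7 and 15.2 CPM in libraries 6 and 7, inside the range of 9.32 to 20.5 CPM under the WT label. The lowest was that of *Ms4a4c* (-1.64, standard error 1.1), with 10.5 CPM in library 3, at most 1.68 CPM elsewhere and an estimate of 0.43 without library 3. The labels did not overlap for 3 of the 84, *Oas1a*, *Herc6* and *Ly6e*, against 4.37% of all tested genes. *Ly6e*, an interferon-induced surface protein chosen after its values were seen, lay at 68.9 to 83.1 CPM in those labelled WT and 55.6 to 62.9 CPM in those labelled KO (log2 fold change -0.37, standard error 0.08, adjusted p = 0.58). DESeq2 called 1 gene of this list, *Ly6e*, and 0.282% of all the genes it tested.

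The 8 tested genes outside the set whose standardized log2 CPM lay closest to the mean of the 10 over the 9 libraries were *Rassf5*, *Ripk2*, *Cenpn*, *Rrm2*, *Spty2d1*, *Zc3h7a*, *Sp140* and *Tradd*, with mean absolute differences from 0.252 to 0.293 SD units. Among the 10 genes themselves this difference ran from 0.290 for *Oasl2* to 0.986 for *Ifi205*, and its median over all tested genes was 0.899. *Rsad2*, at 0.903, lay above that median as *Ifi205* did. All 8 were highest in library 3, *Rrm2* at 20.5 CPM against at most 2.07 CPM elsewhere. The mean they were chosen to match also peaks in library 3, so this follows from the choice and is no separate result.

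Markers of other cells were summed in each library. The 7 macrophage markers summed to 356 to 993 CPM in the libraries labelled WT and to 258 to 379 CPM in those labelled KO, with 6 estimates below 0 and 4 at an unadjusted p under 0.05 (lowest adjusted p 0.68). Without library 3 the highest sum in the libraries labelled WT was 541 CPM. In that fit all 7 macrophage markers were below 0 (median -0.48). Of these, 4 had an unadjusted p under 0.05, as did 11.8% of all genes tested in that fit. The 4 neutrophil markers summed to 4.71 to 30.1 CPM under the WT label and 2.18 to 4.94 CPM under the KO label. The 3 of them tested were all below 0 at an unadjusted p under 0.05. Without library 3, 2 of 3 had such a p, as did 11.8% of all genes tested in that fit. By library the neutrophil sums under the WT label were 5.48, 4.71, 18.1, 5.97 and 30.1 CPM, so that libraries 3 and 5 stood above the other 3. Fibroblast markers (6 genes) summed to 1091 to 2856 CPM (at most 1329 CPM without library 3) and 883 to 1248 CPM, endothelial markers (5 genes) to 376 to 646 CPM and 460 to 606 CPM. Lymphoid markers were low. Those of T cells summed to 1.02 to 1.57 CPM under the WT label and 1.67 to 2.29 CPM under the KO label. Those of NK cells summed to 0.511 to 1.06 CPM and 1.35 to 2.26 CPM. Neither sum overlapped between labels and both were higher under the KO label, though the nearest T cell sums were close (libraries 2 and 6). These sums include genes that did not pass the low-count filter. Among single tested genes, 0 of 3 T cell and 1 of 2 NK cell markers were without overlap, against 4.37% of all tested genes. Of the tested genes, 1 of 3 T cell markers (*Cd8a*) and 2 of 2 NK cell markers (*Ncr1* and *Gzma*) had an unadjusted p under 0.05, all with estimates above 0 and with a lowest adjusted p of 0.68. Without library 3 *Cd8a* did not pass the low-count filter. In that fit 0 of 2 T cell and 2 of 2 NK cell markers had an unadjusted p under 0.05, where 11.8% of all tested genes did. B cell markers summed to 1.97 to 2.53 CPM and 1.80 to 3.19 CPM, and plasmacytoid dendritic cell markers to 0.197 to 0.997 CPM (at most 0.494 CPM without library 3) and 0.371 to 0.764 CPM. The part of these cells in the levels of the 10 genes was not tested.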

How the data were processed

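Left ventricular total RNA of 9 libraries was depleted of ribosomal RNA and sequenced with 50-base single-end reads. The authors deposited a table of raw read counts by Ensembl gene, not normalized. The submitters' processing notes name GRCm38, STAR 2.7.2c, featureCounts 1.6.3 and DESeq2. Neither the annotation release nor how strand and multiply aligned reads were handled in counting is given in the sources used here. Each column was matched to a sample by the library number of its title, and symbols were found for 52403 of 52636 genes.

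The members and gene lists were chosen with earlier results of these data known. The genes named were the 10 members, the highest and the lowest estimate of each list, the 8 genes closest in pattern, and *Vdac2*, *Xist* and *Ddx3y*. *Aim2*, *Cgas*, *Tmem173*, *Ifi207*, *Ifi204*, *Ifi44l*, *Ly6e*, *Oas1a*, *Herc6*, *Cd8a*, *Ncr1*, *Gzma*, *Bak1* and *Ifngr2* were added after their values were seen. Gene positions and exon lengths came from GENCODE M21. Counts were fitted across all genes with edgeR 4.0.16 (R 4.3.3, filterByExpr, TMM, robust quasi-likelihood F-test, Benjamini-Hochberg adjustment), labelled KO against labelled WT. The standard error of a fold change was taken as its size on the log2 scale over the root of the F statistic. Alternatives were DESeq2 1.42.0, RLE normalization, a minimum of 10 counts in every library, a minimum of 1 count over all libraries together (called no low-count filter), voom with quality weights (limma 3.58.1) and each library left out. The fitting was tested on simulated counts with the same dispersion for all genes and no outlying library, so that test did not cover an outlying library. Comparing libraries by their *Vdac2* level was proposed and was not done, because a group made from a measured gene is not a labelled group. Counting floors cover counting error only. Pairs of libraries differed beyond sampling noise (chi-square over degrees of freedom at least 7.1), so each was counted once. A second promoter motif is not reported here.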

Additional observations from a re-analysis of the deposited data

Results flagged for a closer look

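Among 20 pairs of gene and label, 1 held a library far from the rest of its group. *Ifit3* in library 6, labelled KO, measured 6.89 CPM, while the other 3 libraries of that label lay within 9.49 to 9.82 CPM. Its gap to the nearest library was 0.904 of the range of the group on the log2 scale, over Dixon's limit for 4 samples. Chance flags about 1 in 20 groups, the number checked here. Library 6 was also the lowest library for *Ifit1* and *Zbp1*.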

How the results depend on the processing

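The number of genes with an adjusted p under 0.05 between the labels, 9 in edgeR's test, was 62 with DESeq2, 79 with quality weights and 0 with at least 10 counts in every library (875 at an unadjusted p under 0.05), a filter that leaves out *Xist* and *Ddx3y*. Leaving out each library gave 5 to 62, the highest without library 3. The number of the 10 genes called, 0, was 1 (*Ifi205*) with DESeq2, with no low-count filter and with quality weights, and 0 to 1 with each library left out. The number of the 10 with an estimate above 0, 2, was 4 with quality weights and 1 to 4 with each library left out. Their median log2 fold change ran from -0.43 without library 7 to -0.04 without library 3, and that of the wider list from -0.14 to 0.02. Of 140 fold changes of single genes under other settings, 126 kept direction and call, 4 were calls gained, all of *Ifi205*, and 10 changed sign. *Irf7* was 0.12 and *Ifit3* 0.11 with quality weights, *Ifit3* was 0.014 with no low-count filter, and with each library left out *Irf7* ran from -0.23 to 0.11, *Ifit1* from -0.073 to 0.25 and *Ifit3* from -0.093 to 0.15. The cause of these changes was not tested. No paired analysis was possible because the labels give no litter or other link between libraries of the labelled groups. Depth limits *Isg15* and *Zbp1* most, with as few as 27 and 31 counts in a library.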
